A study of Mus musculus with 52 samples.

Results

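What metformin added to leucine after 7 d of reloading was asked by setting 4 libraries of mice that drank both compounds (RL7_ML, title replicates 1, 3, 4 and 6) against 4 libraries of mice that drank leucine alone (RL7_L, replicates 1, 2, 3 and 5), across all genes. These 8 of the 52 libraries of the series were chosen by their title groups, and no measured value was used to choose them. RNA came from the gastrocnemius, a calf muscle, of male C57BL/6 mice aged 22 to 24 mo. All 8 mice had their hind limbs unloaded, a model of disuse in which the hind legs bear no weight, and were then reloaded for 7 d; both groups received leucine in the drinking water, and only RL7_ML received metformin as well. Total RNA depleted of ribosomal RNA was sequenced. The labels give no dose, no length of unloading and no link between animals and libraries, so each library was taken as 1 mouse. The edgeR p-values rest on a spread between libraries that was estimated from all 52 libraries of the series.

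Metformin is a diabetes drug that slows respiratory complex I in mitochondria, raises the AMP to ATP ratio and activates AMP-activated protein kinase (AMPK), which favours energy production over growth. Leucine is a branched-chain amino acid that is sensed by Sestrin proteins and activates mTORC1, the kinase complex that drives protein synthesis and restrains autophagy. In reloaded muscle, satellite cells (the muscle stem cells), fibroblasts and macrophages take part in the rebuilding of fibres and of the matrix around them.

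Totals were 17777846 to 23025872 counts in RL7_L and 17124804 to 20334981 counts in RL7_ML. Skeletal muscle genes were abundant in every library: the fast myosin gene Myh4 lay between 40280 and 59390 CPM, Ckm, the muscle creatine kinase, between 8056 and 13470 CPM, and Acta1, skeletal actin, between 8283 and 16240 CPM (CPM is a gene's count scaled to a common depth, with TMM-adjusted library sizes). Several libraries stood apart. RL7_L 5 held macrophage and liver transcripts, RL7_L 2 immunoglobulin and liver transcripts, RL7_L 3 skin keratin and slow fibre transcripts and RL7_ML 3 collagen transcripts; their values stand beside the results they touch, and the values without them are given there.

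No gene passed the test. Of 16668 genes, 0 (0%) had an edgeR adjusted p under 0.05, and the smallest adjusted p was 0.135 (0.955 in an edgeR fit of the 8 libraries alone). An unadjusted p under 0.05 was found for 576 genes (3.46%), 230 higher in RL7_ML (1.38%) and 346 lower (2.08%), where 833 would be found by chance. Libraries of the groups did not overlap for 466 genes (2.8%), with RL7_ML higher in 265 (1.59%) and lower in 201 (1.21%). By chance alone, 4 libraries against 4 do not overlap with a probability of 0.0286, near the 2.8% found. The median log2 fold change (RL7_ML minus RL7_L) over all genes was 0.01, with 51.8% of genes above 0 and 48.2% below. DESeq2 called 3 genes (0.00828% of those it ran on) and limma voom with quality weights 4 (0.024%), all of them lower in RL7_ML. The DESeq2 calls were Rabep2, A630019I02Rik and Krt10, and the voom calls Rabep2, A630019I02Rik, A930016O22Rik and Ube2c, which are described in turn. Leaving out each of the 8 libraries gave 0 to 4 calls, all lower, with 4 without RL7_L 5. Counts simulated for this comparison gave back 35.8% of 67 genes set to differ by 1.5-fold, 86.6% of 67 at 2-fold and 98.5% of 66 at 4-fold. Each gene was drawn independently of the others. The shares depend on how the counts were drawn and on how many genes were set to differ. They therefore do not tell what share of real changes of these sizes would have passed here. In the data Rabep2, 3.09-fold lower in RL7_ML without overlap, did not pass (edgeR adjusted p = 0.135).

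**Figure D1:**
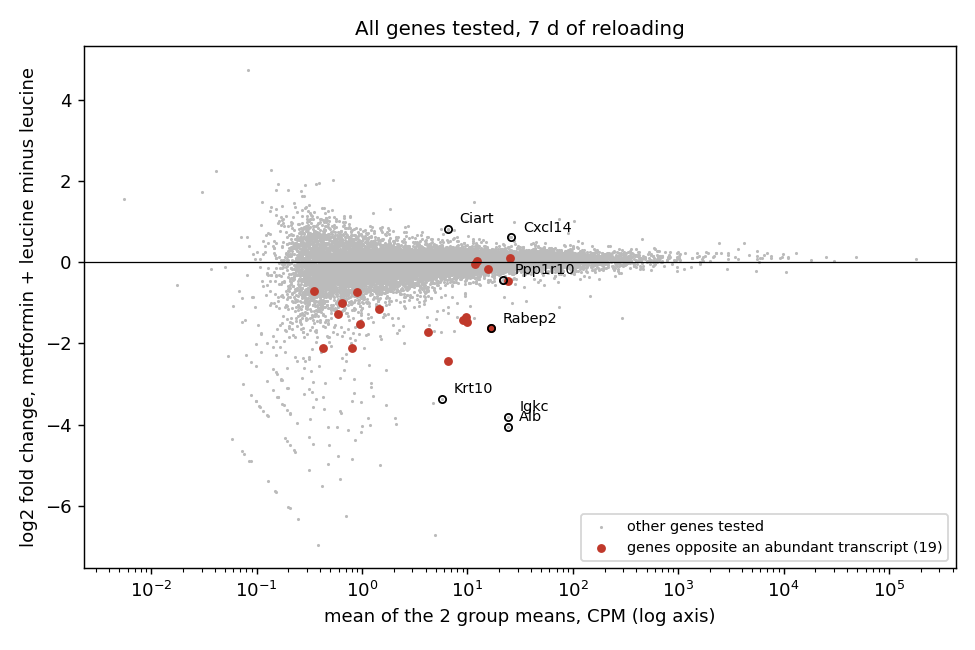
Each point is 1 gene tested; the x axis is its mean level in CPM on a log axis and the y axis its log2 fold change, RL7_ML minus RL7_L. Most genes lie near 0, Rabep2 is among the 19 red points, and Igkc and Krt10, far below 0, were each high in 1 leucine library, and Alb in RL7_L 2 and 5.

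The smallest p-value belonged to Rabep2, a gene of endosome traffic (ENSMUSG00000030727, chromosome 7 at 126428759 to 126449245 of GRCm38, plus strand). It stood at 24.7, 34, 20.4 and 21.3 CPM in RL7_L 1, 2, 3 and 5 and at 10.2, 13.2, 4.23 and 4.79 CPM in RL7_ML 1, 3, 4 and 6. All 4 libraries with metformin lay below all 4 without it (log2 fold change -1.63 ± 0.32 SE, 3.09-fold lower, edgeR adjusted p = 0.135). The call depended on the tool and on single libraries: the adjusted p was 0.0082 with DESeq2, 0.00153 with voom, 0.0141 without RL7_ML 3 and 0.0381 without RL7_L 5. It lay above 0.05 without each of the other 6 libraries, reaching 0.99 without RL7_ML 4.

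Rabep2 shares 763 exon bases with Atp2a1, the calcium pump of fast fibres, which lies on the opposite strand (chromosome 7 at 126445858 to 126463108). Library preparation kept strand, but how strand was handled in counting is not given in the sources used here. Whether reads of a gene entered the counts of its partner on the other strand, with or without use of strand in counting, was not tested. Atp2a1 itself had a log2 fold change of 0.05 ± 0.16. The 2 genes next in order of p, A630019I02Rik and A930016O22Rik, had the same arrangement, as had Ube2c further down the order, and this was noticed after their values were seen. A930016O22Rik, an antisense RNA gene (chromosome 7 at 19417466 to 19421417), shares 451 exon bases with Ckm. It stood at 14.3, 14.8, 11.2 and 17.8 CPM in RL7_L and 8.88, 5.94, 2.61 and 3.66 CPM in RL7_ML, without overlap (log2 fold change -1.46 ± 0.31, edgeR adjusted p = 0.141, and 0.0281 without RL7_ML 1). A630019I02Rik (chromosome 13 at 93094833 to 93098968), opposite the muscle gene Cmya5, stood at 14.1, 16.5, 11.4 and 11.2 CPM against 6.41, 6.73, 2.02 and 4.53 CPM (-1.43 ± 0.30, edgeR adjusted p = 0.141). Ube2c, a ubiquitin-conjugating enzyme of mitosis (chromosome 2 at 164769898 to 164778822), shares 592 exon bases with the troponin gene Tnnc2. It stood at 14.1, 15.2, 10.5 and 15.9 CPM against 8.56, 8.71, 1.77 and 2.68 CPM (-1.36 ± 0.37, edgeR adjusted p = 0.857).

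A set was then formed, after these values were seen, of all tested genes that share exon bases on the opposite strand with a gene of at least 1000 CPM and at least 100 times their own mean. It held 19 genes. Of these, 17 lay below 0 and 12 (63.2%) were lower at an unadjusted p under 0.05, against 2.08% of all genes; 0 were higher. Their median log2 fold change was -1.28, while the 17 partner genes had a median of 0.12 and 0 of them had an unadjusted p under 0.05. The summed counts of the 19 genes were 0.659 to 0.78 per 1000 counts of their partners in RL7_L and 0.369 to 0.528 in RL7_ML, so the groups did not overlap. The same ratio was 0.283 to 0.316 in the 4 water libraries and averaged 0.649 ± 0.134 (SD, n = 4) in the metformin libraries at 7 d, none of them below 0.526. It was 0.218 to 0.338 in all ambulatory and unloaded libraries. After 14 d it was 0.311 to 0.531 with leucine and 0.291 to 0.716 with both compounds, so these groups overlapped. Since the set was formed with these differences in view, they are a description with no test. With the ratio as a covariate, an alternative added after seeing the data, 309 genes were called, 216 higher and 93 lower, in a design where the ratio itself separates the groups.

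**Figure D2:**
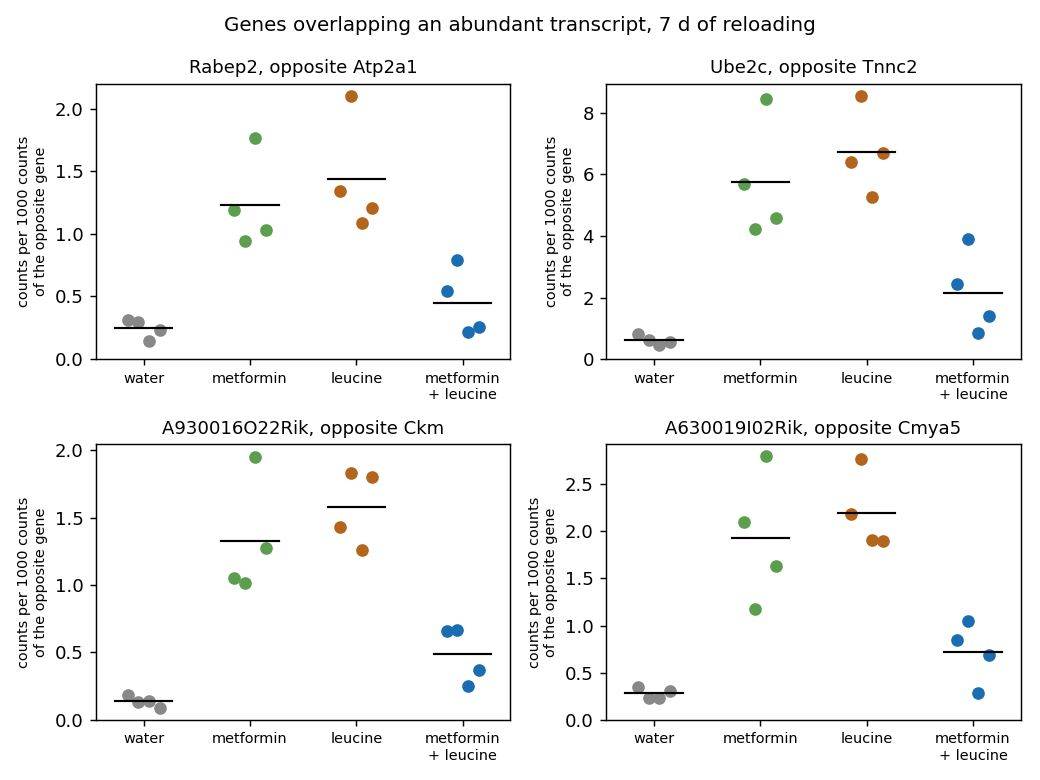
Counts of 4 genes per 1000 counts of the abundant gene on their opposite strand, in the 16 libraries at 7 d by drink; points are libraries and lines are means of 4. In each panel the metformin + leucine libraries lie below the leucine libraries, and the water libraries lie below both the leucine and the metformin libraries.

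Whether metformin acted on these genes differently with and without leucine was tested with the term that sets RL7_ML minus RL7_L against RL7_M (metformin alone) minus RL7_W (water). It was called for 17 of 16668 genes (0.102%), 16 of them lower and 1 higher. Of the 17, 11 belong to the set above, which holds 19 of the 16668 genes. The RL7_L and RL7_ML libraries enter this term, and the set was formed with their differences in view. The term is therefore no independent repeat for these genes, and the count of 11 is a description only. The water libraries, which enter this term, differed from the other libraries at 7 d in other measures as well. Mitochondrial genes took 13.2% to 15.4% of their counts against 5.53% to 10.4% in the other 12 libraries at 7 d. There 5.8S ribosomal RNA averaged 4.99 CPM with water against 0.771 (RL7_L), 0.904 (RL7_M) and 1.76 CPM (RL7_ML). In ambulatory and unloaded libraries the mitochondrial share was 11.2% to 24.1%, which spans that of water, and 5.8S averaged 4.76 to 19.8 CPM by group. After 14 d 5.8S averaged 0.718 CPM with water and 18.4 to 24.4 CPM with the other drinks. The part of the mitochondrial share in the term was not tested. Rabep2 was 3.09-fold lower with metformin on top of leucine, but metformin alone stood above water by a log2 fold change of 2.71 ± 0.34, with levels of 17.5 to 30.2 CPM against 2.13 to 4.34 CPM. Leucine alone stood above water too, by a log2 fold change of 2.84 ± 0.34. The difference of the 2 metformin contrasts was -4.34 (edgeR adjusted p = 5.67e-08). For A930016O22Rik it was -5.10 (edgeR adjusted p = 1.19e-09), for Ube2c -4.25 (4.24e-06) and for A630019I02Rik -4.03 (5.67e-08). The 1 gene with a higher term was n-R5-8s1, a 5.8S ribosomal RNA gene, at 0.591 to 3.28 CPM in RL7_ML and 0.533 to 1.14 CPM in RL7_L (term 3.64, edgeR adjusted p = 0.0108). With the 5.8S level as a covariate the term was called for 7 genes, all lower.

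The share of all genes tested that overlap a gene on the other strand was not counted. Of the 17 genes, 14 have such an overlap, by any part of the gene body, which is a description only. The other 3 were n-R5-8s1, Cdsn, a skin gene at a mean of 1.2 CPM in RL7_L that was named after its value was seen, and Ppp1r10, which encodes a nuclear subunit that guides protein phosphatase 1. Ppp1r10 stood at 24.2, 24.4, 27.2 and 24.4 CPM in RL7_L and 17.5, 18.3, 17.1 and 21.4 CPM in RL7_ML. The leucine libraries were all higher, within a narrow range (log2 fold change -0.43 ± 0.10, edgeR adjusted p = 0.288). Metformin alone lay at 23.1 to 29.6 CPM and water at 18.1 to 22.4 CPM, and the term was -0.75 (edgeR adjusted p = 0.00679).

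Since 0 genes passed, the genes named next are those of smallest unadjusted p in each direction whose groups did not overlap, and none of them passed the adjusted test. Among genes lower in RL7_ML, Acer3, an alkaline ceramidase, stood at 7.08, 8.07, 8 and 7.14 CPM in RL7_L and 5.38, 5.85, 5.52 and 4.43 CPM in RL7_ML (log2 fold change -0.52 ± 0.17). Npy1r, a receptor for neuropeptide Y, stood at 1.92 to 2.78 CPM against 0.66 to 1.49 CPM (-0.89 ± 0.28). Ezr, ezrin, which ties the cell membrane to actin, had 2.86 to 4.14 CPM against 1.44 to 2.64 CPM (-0.81 ± 0.29). The ranges of the groups came close to each other for Npy1r and Ezr, and also for Baz1a and Coro1c, named below. Dhtkd1, a mitochondrial enzyme of lysine breakdown, stood at 4.27 to 5.55 CPM against 2.1 to 3.86 CPM (-0.57 ± 0.20), and Baz1a, a chromatin remodelling factor, at 3.46 to 6.22 CPM against 2.86 to 3.4 CPM (-0.63 ± 0.23). Coro1c, an actin-binding protein, was high in RL7_L 5 at 20.9 CPM against 11.2 to 12 CPM in the other leucine libraries and 9.68 to 10.8 CPM in RL7_ML; its log2 fold change was -0.46 ± 0.17, and -0.22 without RL7_L 5. Entpd7 and the noncoding Gt(ROSA)26Sor were lower too (-0.85 and -0.70). Ezr, Dhtkd1, Baz1a, Coro1c, Entpd7 and Gt(ROSA)26Sor each overlap a gene on the other strand by some part of the gene body, while Acer3 and Npy1r do not. None of them belongs to the set of 19 genes above. The share of all genes tested with such an overlap was not counted, so this is a description only.

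Among genes higher in RL7_ML, Cxcl14, a chemokine made in muscle and skin, stood at 18.8, 21.2, 20.6 and 22 CPM in RL7_L and 27.6, 28.6, 26.9 and 43 CPM in RL7_ML. Replicate 6 was far above the other combination libraries, which were all above the leucine libraries as well (log2 fold change 0.61 ± 0.19, and 0.40 without RL7_ML 6). Paip2b, which restrains translation by binding the poly(A)-binding protein, had 37.7, 38.8, 38.9 and 38 CPM against 50.3, 42.5, 49.6 and 47.6 CPM. The leucine libraries were nearly equal and the combination libraries 1.24-fold higher (0.31 ± 0.11); water lay at 45.4 to 52.7 CPM, in the range of the combination. Spg7, the mitochondrial protease paraplegin, had 35.4, 31.6, 33.6 and 32.6 CPM against 45.3, 38.6, 41.2 and 38.7 CPM (0.30 ± 0.10). Dnajc10, a disulfide reductase of the endoplasmic reticulum, had 18.1 to 20.5 CPM against 21 to 23.6 CPM (0.26 ± 0.09). Ptcd1, a factor of mitochondrial RNA processing that overlaps Bud31, had 5.54 to 7.88 CPM against 8.19 to 11.1 CPM (0.51 ± 0.15). Zswim7, a DNA repair factor, had 4.19 to 4.96 CPM against 6.02 to 9.96 CPM, with RL7_ML 1 highest (0.68 ± 0.20, and 0.49 without it). Tmem267 had 2.38 to 9 CPM against 9.15 to 14.9 CPM (1.01 ± 0.32), with RL7_L 3 lowest; without that library the value was 0.71. Snap47 (0.44), Mb21d2 (0.54), Hmgxb4 (0.36) and Hic2 (0.58) were higher too. Several of these ranges came close to each other between the groups, as for Ptcd1, Tmem267 and Hic2 (highest leucine library 3.07 CPM, lowest combination library 3.17 CPM). Ptcd1, Tmem267, Snap47, Hmgxb4 and Hic2 overlap a gene on the other strand by some part of the gene body, and the others of this paragraph do not. None of them belongs to the set of 19 genes, and the share of all genes tested with such an overlap was not counted.

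**Figure D3:**
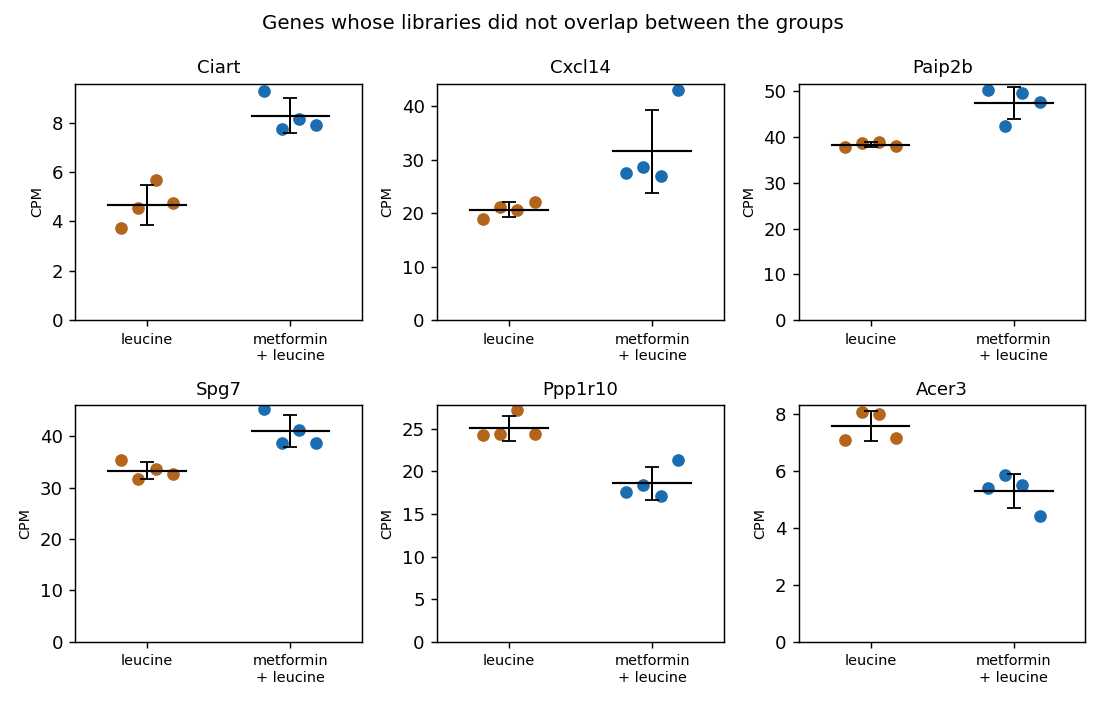
CPM of 6 named genes in the 4 leucine and the 4 metformin + leucine libraries; points are libraries, lines are means and bars are SD (n = 4). The groups do not overlap in any panel, and the Cxcl14 value of 43 CPM in RL7_ML 6 sets the spread of its group.

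Ciart, a repressor of the circadian clock that acts on the CLOCK and BMAL1 activators (ENSMUSG00000038550, chromosome 3 at 95878503 to 95882251, minus strand), was the clock gene of smallest p. It stood at 3.72, 4.53, 5.66 and 4.74 CPM in RL7_L and 9.31, 7.74, 8.17 and 7.93 CPM in RL7_ML. Leucine libraries were lower without overlap, and water, at 5.94 to 8.17 CPM, and metformin alone, at 6.55 to 8.49 CPM, overlapped the combination (log2 fold change 0.83 ± 0.28, 1.77-fold higher, edgeR unadjusted p = 0.00449, not passing after adjustment, and 0.71 to 0.91 without any 1 library). CLOCK and BMAL1 bind E-boxes of the letters CACGTG, the same on both strands. The 250 bases before the start of Ciart in RefSeq (GRCm38.p6, chr3:95882229-95882478, minus strand, shown because 3 E-boxes stand in it) are given with the E-boxes in capitals.
Ciart: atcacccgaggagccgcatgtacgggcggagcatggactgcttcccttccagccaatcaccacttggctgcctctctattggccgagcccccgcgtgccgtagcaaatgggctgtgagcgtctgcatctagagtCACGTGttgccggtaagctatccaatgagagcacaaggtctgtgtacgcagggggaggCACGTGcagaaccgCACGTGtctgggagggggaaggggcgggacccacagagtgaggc
Of 32851 such RefSeq windows 6.02% hold a CACGTG and 0.0609% hold at least 3; among the 16 listed clock genes with a window 5 hold one. The 19 clock genes had a median log2 fold change of 0.11, with 16 above 0 and 1, Ciart, at an unadjusted p under 0.05. No value of these data ties the motif to the difference. Ciart also overlaps C920021L13Rik on the other strand.

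The gene lists were described by counts, since 0 of 860 listed genes passed the test; 17 (1.98%) were higher and 20 (2.33%) lower at an unadjusted p under 0.05, near the 1.38% and 2.08% of all genes. Of the 35 pathway lists, 21 had a median above 0, and 15 of these stayed above 0 without each of the 8 libraries in turn; 14 had a median below 0, and 6 of these stayed below 0. The lists of complex I, complexes II to V and glycolysis had the highest medians. Of 37 nuclear-encoded subunits of complex I, the enzyme that metformin slows, 36 lay above 0 with a median of 0.22, against 51.8% of all genes above 0; 3 had an unadjusted p under 0.05 and 0 passed. Ndufab1, the acyl carrier subunit, did not overlap between the groups, at 51.5 to 62.1 CPM against 65.5 to 72.3 CPM (0.27 ± 0.12). Of 38 subunits of complexes II to V, 37 lay above 0 with a median of 0.23; Cox4i1 of complex IV had 151, 114, 157 and 140 CPM against 218, 160, 180 and 152 CPM (0.34 ± 0.15), so RL7_ML 6 lay among the leucine libraries.

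Glycolysis and glycogen genes (23 of 25 above 0, median 0.20) and fast-twitch fibre genes (16 of 16, median 0.14) lay on the same side. Gyg, which primes glycogen synthesis, had 137 to 172 CPM against 159 to 198 CPM (0.24 ± 0.12). Proteasome subunits (23 of 25, median 0.17) and ribosomal proteins (25 of 28, median 0.10) were also mostly above 0, with Psmb4 at 0.32 ± 0.16 and Rpl13 at 0.36 ± 0.17. One library moved with all of these: RL7_ML 1 had the highest mean of the complex I list of all 8 libraries, at 0.36 on the log2 scale relative to the mean of the 8, and RL7_L 2 the lowest, at -0.28. Without RL7_ML 1 the medians were 0.10 for complex I, 0.13 for complexes II to V, 0.11 for glycolysis, 0.03 for fast fibre genes, 0.06 for the proteasome and 0.0010 for ribosomal proteins. Without the 12 libraries of the series with over 16 CPM of Alb, a liver transcript, they were 0.10 for complex I and for complexes II to V. That setting leaves RL7_L 1 and 3 against all of RL7_ML. The genes of the mitochondrial genome had a median of 0.13 over 13 genes, and -0.04 without RL7_L 5, in which mitochondrial genes took 5.88% of counts against 9.15% to 9.42% in the other leucine libraries. The gene mt-Co3, for a subunit of complex IV, had 61, 45.9, 51.8 and 32.9 CPM against 49.8, 162, 145 and 42.8 CPM. Of the 4 combination libraries 2 were high and the other 2 lay among the leucine libraries (1.06 ± 0.40). Mitochondrial genes together took 5.88% to 10.4% of counts in the 8 libraries, of which these mt-Co3 counts are a small part. How reads of mt-Co3 were assigned was not tested.

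The AMPK genes overlapped between the groups. Prkaa2, the catalytic subunit of muscle, stood at 438, 455, 449 and 412 CPM in RL7_L and 483, 411, 477 and 455 CPM in RL7_ML (0.06 ± 0.12, 95% interval -0.19 to 0.31), and Prkaa1 at 15.7 to 16.6 CPM against 13.5 to 17.5 CPM (-0.01 ± 0.10). Of 10 AMPK genes 4 lay above 0, with a median of -0.01. Ppargc1a, the coactivator of mitochondrial biogenesis, had 46.1 to 66.1 CPM against 43.9 to 63 CPM (-0.04 ± 0.29), and Pdk4, the kinase that holds back glucose oxidation, 311 to 732 CPM against 332 to 656 CPM (-0.05 ± 0.41). The fatty acid oxidation list had 18 of 26 genes above 0 (median 0.13). Fatty acid and sterol synthesis lay on the other side, with 17 of 23 below 0 and a median of -0.27. Elovl6, a fatty acid elongase, had 1.4, 3.29, 4.84 and 3.26 CPM against 0.646, 1.76, 1.18 and 1.29 CPM (-1.38 ± 0.51), and Scd1, the stearoyl desaturase, 128, 563, 134 and 860 CPM against 79.8, 235, 110 and 224 CPM (-1.38 ± 0.86). The high Scd1 libraries were RL7_L 2 and 5, in which adipocyte markers summed to 544 and 625 CPM against 334 to 421 CPM in the other 6; the part of these cells was not tested. All 13 adipocyte markers lay below 0 (median -0.99), with Adipoq, adiponectin, at 4.7, 17.3, 2.63 and 18.2 CPM against 2.31, 10, 3.74 and 5.3 CPM. Without the libraries with over 16 CPM of Alb, RL7_L 2 and 5 among them, the medians were 0.40 for adipocyte markers and -0.00083 for lipid synthesis. In whole muscle, fewer cells of a type and less RNA per cell cannot be told apart.

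Genes of leucine sensing and mTORC1 control had a median of 0.08, with 20 of 26 above 0 (0.04 without RL7_L 2). Lars, the leucyl-tRNA synthetase that also senses leucine, had 33.6 to 43.2 CPM against 37.8 to 53.8 CPM (0.23 ± 0.11), and Eif4ebp1, the translation repressor that mTORC1 switches off, 11.7 to 14 CPM against 13.9 to 17.6 CPM (0.35 ± 0.20). Slc43a1, a transporter of branched-chain amino acids, did not overlap between the groups, at 12.7, 9.91, 8.78 and 9.81 CPM against 15, 13.2, 17.2 and 15.4 CPM (0.57 ± 0.23, edgeR unadjusted p = 0.0171). The amino acid transporters as a list had 9 of 18 above 0. Branched-chain amino acid breakdown had 16 of 20 above 0 and a median of 0.09 (0.01 without RL7_ML 1), with Hibadh, of valine breakdown, at 54.2 to 60.4 CPM against 57.9 to 72.4 CPM. Of 21 ATF4 targets, which respond to amino acid shortage, 12 lay above 0 (median 0.01): Atf4 itself had a log2 fold change of 0.29 ± 0.13, and Cth, which makes cysteine, -0.84 ± 0.36 with 1.48 to 2.09 CPM against 0.618 to 1.33 CPM. Ddit4, the stress-induced mTORC1 inhibitor, had 1.71 to 3.9 CPM against 1.28 to 3.12 CPM (-0.33 ± 0.52).

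Among protein breakdown genes, Trim63, the ligase MuRF1, stood at 128, 91.3, 109 and 103 CPM in RL7_L and 159, 132, 110 and 116 CPM in RL7_ML (0.26 ± 0.25), and Fbxo32, atrogin-1, at 244 to 428 CPM against 310 to 462 CPM (0.24 ± 0.23); both overlapped. Foxo1 had -0.13 ± 0.21 and Mstn, myostatin, 0.03 ± 0.33. Of 20 ligase and FoxO genes 14 lay above 0 (median 0.08). Sqstm1, the autophagy receptor p62, had 252, 198, 264 and 252 CPM against 347, 316, 284 and 256 CPM (0.32 ± 0.12). Nqo1, a target of the oxidative stress factor NRF2, had 12.1, 9.05, 7.47 and 8.74 CPM against 13.4, 14.4, 13.9 and 11.6 CPM, with RL7_L 1 above RL7_ML 6 (0.52 ± 0.18, edgeR unadjusted p = 0.00642). Of 25 glutathione and NRF2 genes 20 lay above 0 (median 0.14).

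**Figure D4:**
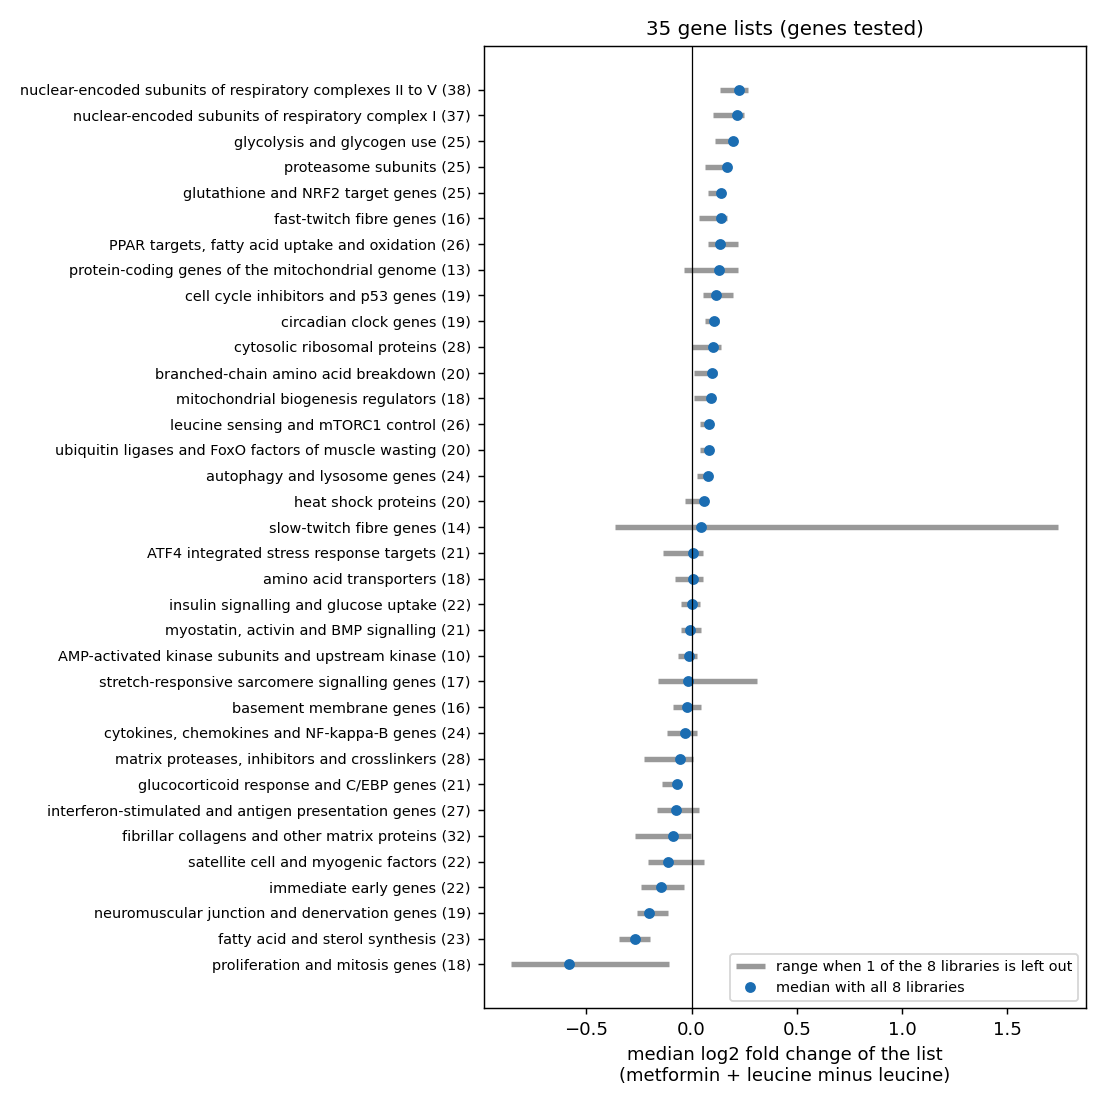
Median log2 fold change (RL7_ML minus RL7_L) of 35 gene lists, with the number of genes tested in brackets; points use all 8 libraries and grey bars span the medians when each of the 8 libraries was left out. Complex I, complexes II to V and glycolysis lie highest, near 0.2, and the bars of slow-twitch and proliferation genes are the longest.

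Values of the satellite cell and matrix genes named here overlapped between the groups. Pax7, the satellite cell factor, stood at 1.81, 1.24, 2.13 and 3.11 CPM in RL7_L and 2.21, 2.46, 2.56 and 1.65 CPM in RL7_ML (0.09 ± 0.27, 95% interval -0.45 to 0.64). Myod1 had 9.18 to 15.2 CPM against 8.77 to 11.5 CPM (-0.31 ± 0.28). Of 22 satellite cell and myogenic genes 8 lay above 0 (median -0.11), and Vcam1, an adhesion molecule of satellite and endothelial cells, had -0.57 ± 0.26. Col1a1, a chain of type I collagen, had 101, 68.1, 34.9 and 98 CPM against 32.7, 112, 44.7 and 42.6 CPM. RL7_ML 3 was far above the rest of its group and RL7_L 3 below the rest of its own (-0.38 ± 0.53, and -0.94 without RL7_ML 3). Col3a1 had 63 to 193 CPM against 65.2 to 150 CPM (-0.41 ± 0.42). Of 32 matrix genes 9 lay above 0 (median -0.09), from -0.27 without RL7_ML 3 to -0.0029 without RL7_L 1, and of 16 basement membrane genes 8 did (median -0.02). Tendon and joint lining markers summed to 348 CPM in RL7_ML 3 and 164 to 307 CPM in the other 7, and smooth muscle and pericyte markers to 817 CPM against 667 to 746 CPM; their part in the collagen values was not tested.

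Of 19 neuromuscular junction and denervation genes 16 lay below 0, with a median of -0.20 (-0.26 to -0.11 without any 1 library), and 0 were lower at an unadjusted p under 0.05. Slow-twitch fibre genes varied widely between libraries of both groups. Myh7, the slow myosin gene, whose values were inspected outside the naming rule, stood at 92.7, 3.76, 464 and 35.3 CPM in RL7_L and 248, 42.8, 42.4 and 278 CPM in RL7_ML. Values in RL7_L spanned those of RL7_ML in both directions (0.04 ± 1.1). The 14 slow genes had a median of 0.05, which was 1.74 without RL7_L 3 and -0.37 without RL7_L 2.

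Proliferation and macrophage genes mostly lay below 0, and RL7_L 5 was the highest library for those named. Of 18 proliferation genes 16 lay below 0, with a median of -0.58, and 7 were lower at an unadjusted p under 0.05, against 48.2% of all genes below 0 and 2.08% lower at that p. Mcm5, of DNA replication, stood at 0.724, 1.32, 0.739 and 2.92 CPM in RL7_L and 0.377, 0.879, 0.394 and 0.463 CPM in RL7_ML, and Ccna2, cyclin A, at 0.414, 0.641, 0.78 and 2.59 CPM against 0.295 to 0.44 CPM; RL7_L 5 was highest for both. Cd68, a lysosomal protein of macrophages, stood at 3.31, 2.31, 2.01 and 18 CPM against 2.31, 2.81, 0.886 and 2.83 CPM (-1.54 ± 0.50). Without RL7_L 5 its log2 fold change was -0.21, 0 proliferation genes had an unadjusted p under 0.05 (median -0.11), and the macrophage list moved from a median of -0.53, with 1 of 15 above 0, to 0.31, with 12 of 15. Macrophage markers summed to 277 CPM in RL7_L 5 and 54 to 120 CPM in the other 7.

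Lgals3, Gpnmb and Trem2, genes of lipid-laden macrophages named after their values were seen, stood at 24.6, 44.2 and 5.55 CPM in RL7_L 5, where the other leucine libraries had 2.69 to 4.06, 5.33 to 9.31 and 0.0821 to 0.207 CPM. Immunoglobulin genes were high in RL7_L 2, with Igkc at 174 CPM against 1.72 to 3.15 CPM in the other leucine libraries and 1.03 to 8.4 CPM in RL7_ML; of 13 lymphocyte markers 4 were abundant enough to test, and their median of -1.54 became 0.34 without RL7_L 2. The skin genes Krt10 and Perp, also named after their values were seen, stood at 39.2 and 12.5 CPM in RL7_L 3 and at or below 1.58 CPM in the other 7 libraries. Krt10 had an adjusted p of 0.0082 with DESeq2, but a log2 fold change of 0.23 without RL7_L 3. Alb, a liver transcript, stood at 0.0517, 49.9, 0.287 and 131 CPM in RL7_L and 0.215, 0.176, 9.85 and 0.721 CPM in RL7_ML, and all 15 liver genes tested lay below 0 (median -3.82). Without the libraries with over 16 CPM of Alb, which leaves RL7_L 1 and 3 against all of RL7_ML, 9 liver genes were tested and their median was 4.57. The libraries were left out by the level of a liver gene, so this change of sign followed from the choice. Endothelial markers summed to 350 to 413 CPM against 334 to 416 CPM, with 11 of 14 above 0 (median 0.11); Cldn5, of their tight junctions, had 2.91 to 4.03 CPM against 3.96 to 6.78 CPM (0.54 ± 0.22). None of 16 library measures passed an exact permutation test over the 8 libraries (two-sided, smallest p = 0.2286 where 0.0286 is the smallest possible, adjusted p at least 0.99).

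**Figure D5:**
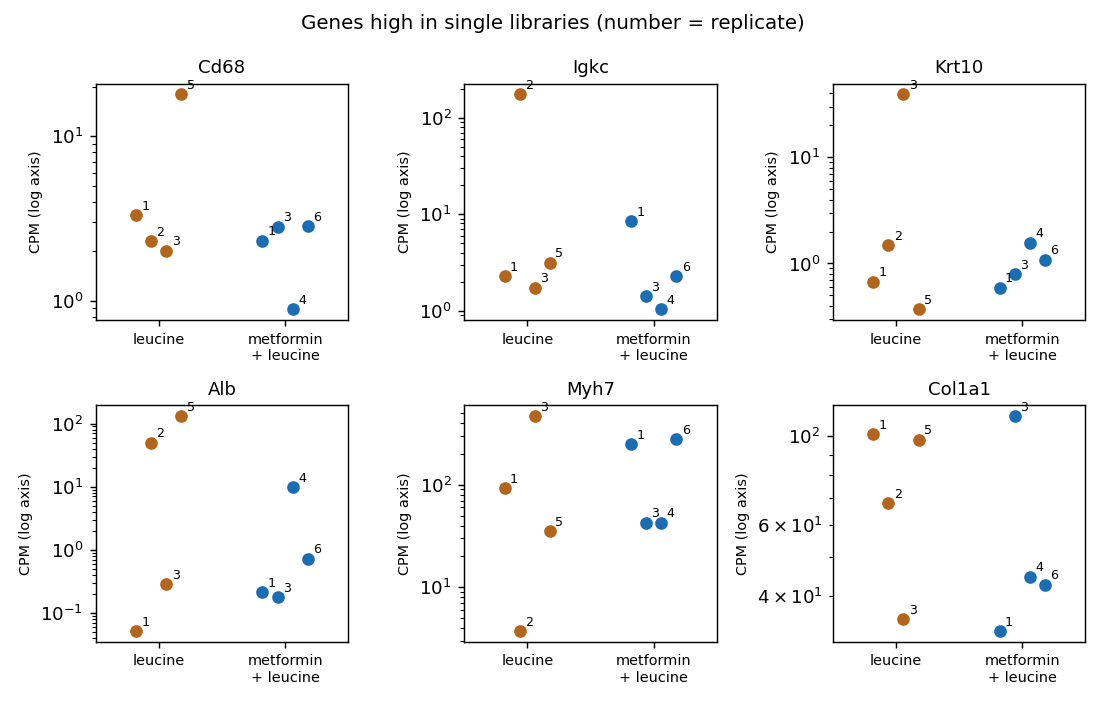
CPM of 6 genes on log axes in the 8 libraries, each point marked with its replicate number. RL7_L 5 is highest for Cd68 and Alb, RL7_L 2 for Igkc, RL7_L 3 for Krt10 and Myh7, and RL7_ML 3 for Col1a1.

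Whether the effect of adding metformin to leucine depended on the time was tested against the same contrast during unloading and after 14 d. For the term of 14 d minus 7 d, 0 of 16668 genes (0%) passed, with 750 (4.5%) at an unadjusted p under 0.05; for 7 d minus unloading, 0 (0%) passed, with 1015 (6.09%). Rabep2 had a log2 fold change of -1.63 at 7 d, -0.60 during unloading and -0.63 after 14 d, and its terms had edgeR adjusted p = 0.804 for 7 d minus unloading and 0.982 for 14 d minus 7 d. Ciart had 0.83 at 7 d, -0.18 during unloading and 0.48 after 14 d, and Ppp1r10 -0.43, -0.02 and 0.04. The complex IV gene Cox4i1 had 0.34, 0.07 and -0.15. None of these time differences passed the test.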

How the data were processed

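Gene counts were deposited by the authors as whole numbers per gene for 52 libraries. Per the submitters' processing notes, GRCm38, STAR 2.7.3a, featureCounts 1.6.3 and DESeq2 1.30.0 were used; the strand setting of the counting is not given in the sources used here. Labels gave the groups, 4 libraries each.

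Counts were tested in R 4.3.3 with edgeR 4.0.16 (quasi-likelihood test, robust, TMM, filterByExpr with a minimum count of 10, Benjamini-Hochberg adjustment, calls at an adjusted p under 0.05), with all 52 libraries and 39 residual degrees of freedom, so that all groups share 1 estimate of the spread. Values are log2 fold change ± SE, RL7_ML minus RL7_L, and CPM per library. DESeq2 1.42.0, limma 3.58.1 voom, other scalings, filters and samples, covariates, a replicate block and leaving out each library were alternatives. The fit was tested on simulated data.

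Named genes were the 12 of smallest p in each direction without overlap, an average log2 CPM of at least 1 and no predicted, clone or Rik name, 2 per list and direction, 3 per interaction term and 15 set genes; some are left out for room or are not reported here. Overlap on the opposite strand was read from GENCODE gene models, by shared exon bases for the set of 19 genes and by any part of the gene body elsewhere. The share of all genes tested with a gene body overlap was not counted. Members, the 46 gene lists (35 of pathways, 11 of cell type markers) and tests were chosen with earlier results of these data known.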

Additional observations from a re-analysis of the deposited data

Results flagged for a closer look

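Single libraries lay far from the other 3 of their group in 25 of 204 groups of values examined, where chance gives about 1 in 20; 16 were in RL7_L and 9 in RL7_ML. The tally is no test of that rate, since 5 of the 25 (Krt10, Perp, Lgals3, Gpnmb and Trem2) are genes named because 1 library was seen to be high. RL7_L 5 held 9 of them. It was high for Cd68 at 18 CPM, Ctss at 35.2, Lgals3 at 24.6, Gpnmb at 44.2, Trem2 at 5.55, Ccna2 at 2.59, Myog at 4.7 and Coro1c at 20.9 CPM, and its mitochondrial share of counts was low at 5.88%. RL7_L 2 was high for Igkc at 174 CPM, Jchain at 10.5 CPM and the summed lymphocyte markers at 792 CPM. RL7_L 3 was high for Krt10 at 39.2, Perp at 12.5 and Ppp1r10 at 27.2 CPM, and RL7_L 1 for Cmya5 at 6430 CPM.

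RL7_ML 1 was high for Zswim7 at 9.96, Igkc at 8.4 and Cldn5 at 6.78 CPM, and low for the summed endothelial markers at 334 CPM. RL7_ML 3 was high for Col1a1 at 112 and Col1a2 at 129 CPM and low for Dnajc10 at 21 CPM. RL7_ML 4 was high for Alb at 9.85 CPM and RL7_ML 6 for Cxcl14 at 43 CPM.

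The metformin by leucine term, the difference of the metformin contrast with and without leucine, passed the edgeR test for 9 of the genes followed. It holds the comparison of RL7_ML with RL7_L, so it is no independent repeat of that comparison. The water libraries, which enter this difference, stood apart in other measures as well. On the log2 scale the difference was -4.34 for Rabep2, -5.1 for A930016O22Rik, -4.03 for A630019I02Rik, -4.25 for Ube2c, -6.29 for Gm13938, -7.89 for Gm26604, -10.1 for Gm37376, -0.754 for Ppp1r10 and 3.64 for n-R5-8s1. Water libraries were at or near 0 for the Gm genes, which were named after their values were seen, so their fitted sizes depend on the prior count.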

How the results depend on the processing

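The count of 0 called genes held with RLE size factors, no filter, fits of 8 or 16 libraries, 5.8S rRNA as a covariate and without RL14_ML 1 and 6. It was 3 without the libraries with over 16 CPM of Alb, 3 with DESeq2, 4 with voom, 309 with the opposite-strand ratio as a covariate (chosen after seeing the data) and 0 to 4 when leaving out 1 library. Listed genes called went from 0 to 24 with that covariate. The term of 7 d minus unloading had 1 call without RL14_ML 1 and 6, 2 with DESeq2 and 0 to 1 when leaving out 1 library. The metformin by leucine term had 37 calls (17 higher, 20 lower) without RL14_ML 1 and 6, 11 without the Alb libraries, 7 with 5.8S rRNA, 211 (86 higher, 125 lower) with the ratio, 41 with DESeq2 and 12 to 16 when leaving out 1 library. The causes were not tested. Replicates 1 and 3 occur in both groups, and their deviations correlated at 0.03 and -0.07. What a shared number means is not given, and these correlations cannot exclude that such libraries share more than a number. The replicate block gave 0 calls (709 at an unadjusted p under 0.05) and 14 for the metformin by leucine term.

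Of 88 genes followed, 65 kept their sign under every alternative and 73 were called under none. Without the Alb libraries the log2 fold changes were -0.012 for Atp2a1, -0.025 for Fbxo32, 3.89 for Alb, 0.31 for Scd1, 0.70 for Ctss, 0.70 for Igkc, 0.50 for Jchain, 0.56 for Adipoq, 0.49 for Trem2 and -0.87 for Myh7. With the opposite-strand ratio they were -0.066 for Cmya5, -0.25 for Tnnc2, 0.31 for Myod1, 0.20 for Col1a1, 0.35 for Col1a2, -0.093 for Fbxo32, -0.33 for Mstn, -0.0067 for Nfe2l2 and -0.17 for mt-Rnr1. With the replicate block they were -0.064 for Mstn, 0.050 for Ppargc1a and 0.10 for Pdk4, and with 5.8S rRNA -0.14 for Myh7. Leaving out 1 library gave -0.0049 to 0.31 for Tnnc2, -0.10 to 0.35 for Pax7, -0.42 to 0.0033 for Col1a2, -0.070 to 0.088 for Mstn, -0.069 to 0.048 for Prkaa1, -0.13 to 0.037 for Ppargc1a, -0.27 to 0.11 for Pdk4, -1.70 to 0.29 for Ctss, -4.87 to 0.42 for Igkc, -3.08 to 0.41 for Jchain, -3.77 to 0.23 for Krt10, -3.48 to 0.67 for Trem2 and -0.44 to 1.79 for Myh7.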
